A study of Homo sapiens with 12 samples.

Results

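The zinc finger cluster of chromosome 19p13.1 to 19p12 was described in 2 human ovarian cancer cell lines that differ in which of its genes they transcribe. It was represented by 34 listed genes of the KRAB zinc finger family, of which 27 were among the 19251 genes with values and 7 were not analysed here (ZNF98, ZNF99, ZNF208, ZNF257, ZNF626, ZNF676 and ZNF728). The set was chosen by measured values: it was picked because members were on in 1 line and silent in the other in untreated cells, so every difference of a member between the lines is a description and carries no test. The 4 groups were CAOV3 controls, CAOV3 with ascites, TOV21G controls and TOV21G with ascites, each with 3 libraries of bulk RNA sequencing. CAOV3 is labelled high grade serous and TOV21G clear cell, both epithelial, with the genotype given as WT. Both were grown in DMEM with fetal bovine serum and antibiotics, and the treated wells received 10% ovarian cancer ascites, the fluid that gathers in the abdomen of patients, for 16 h. No addition to the control wells is described, and each tumour type is represented by 1 line. The labels do not say whether libraries came from separate cultures, so p-values measure the spread between these libraries, which may be technical.

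KRAB zinc finger proteins bind DNA through tandem C2H2 fingers, each of which reads a few bases. Their KRAB domain recruits the corepressor TRIM28 (KAP1), which brings the histone methyltransferase SETDB1, heterochromatin proteins and histone deacetylases to the bound site. The family grew by tandem duplication, mainly on chromosome 19, and many members bind and silence transposable elements. ZNF91 is known for repressing SVA elements and ZNF93 for repressing L1 elements. Neighbouring copies remain alike in sequence, which matters for how reads are assigned to them.

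Levels are the authors' normalised read counts, which are reads divided by a size factor of the library, so that whole reads could be recovered from them. The reads recovered over the listed genes numbered 26697609 to 34491304 a library, at which 1 read corresponds to a value close to 1. No sequencing batch is given in the labels. All 6 epithelial markers were lower in the TOV21G controls than in the CAOV3 controls by limma, among them KRT8, with means of 66470 in CAOV3 and 5287 in TOV21G, and CDH1, with 425 and 13.3. KRT8 and KRT18 were called higher with ascites in CAOV3 (limma adjusted p = 0.0231 and 0.0102). The rest of the 6 were not called and went both ways: EPCAM and CLDN4 had higher means with ascites, KRT19 and CDH1 lower ones. CDH1 had 389 to 455 in the CAOV3 controls and 266 to 281 with ascites, without overlap. PAX8, WT1 and MUC16, markers of serous tumours, had means of only 19.1, 4.59 and 12 in the CAOV3 controls, the line labelled serous. PAX8 had a mean of 7032 in the TOV21G controls. Of 6 leukocyte markers 2 were analysed, and their summed level was 117 to 134 in CAOV3 controls and 101 to 125 in CAOV3 with ascites, and 8.39 to 13.0 and 11.6 to 20.4 in the same groups of TOV21G. The 4 mesothelial and fibroblast markers analysed (of 5) summed to 4245 to 4966 and 3825 to 4039 in CAOV3, and to 2375 to 2530 and 2226 to 2404 in TOV21G. These sums were mostly single genes, and the markers went opposite ways. LUM had control means of 4196 in CAOV3 and 0 in TOV21G, and CALB2 had 43.0 and 0.361. COL1A1 had 308 in CAOV3 and 1945 in TOV21G, and MSLN had 14.8 and 510. LYZ and LUM, a leukocyte and a fibroblast marker, were at 0 in all TOV21G controls, and the 4 red cell and platelet markers were not analysed here. In bulk RNA a smaller number of cells of a kind and less RNA per cell cannot be told apart.

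In untreated cells each line transcribed a different part of the cluster. A gene was called on where all 3 control libraries of a line had a value of at least 10, silent where all 3 were below 10, and at the threshold otherwise. By this rule 13 of the 27 members were on in both lines, 4 were on in CAOV3 and silent in TOV21G, 8 were on in TOV21G and silent in CAOV3, and the other 2, ZNF90 and ZNF85, were on in TOV21G and at the threshold in CAOV3. In all, 17 members were on in CAOV3 and 23 in TOV21G. Among all 19251 genes 6.96% were on in CAOV3 and silent in TOV21G and 5.58% the reverse, and since the set was picked for this pattern nothing is read from the excess. The heat map of all libraries shows the pattern in the order of the genes on the chromosome.

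**Figure D1:**
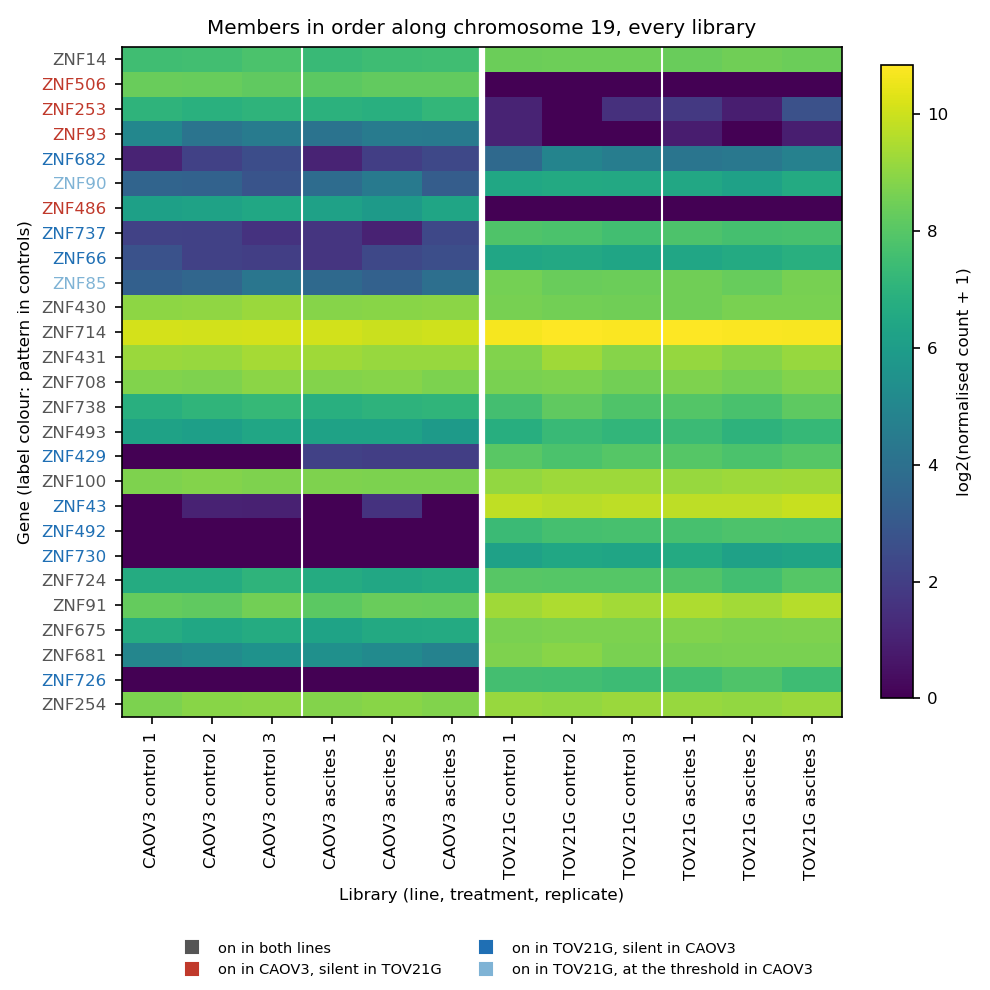
Heat map of log2(normalised count + 1) for the 27 analysed members (vertical axis, in chromosomal order, label colour giving the pattern in controls) in the 12 libraries (horizontal axis, 3 a group). Dark cells at ZNF506, ZNF253, ZNF93 and ZNF486 lie in TOV21G, those at ZNF429, ZNF43, ZNF492, ZNF730 and ZNF726 in CAOV3, and the control and ascites libraries of a line look alike.

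The 4 members silent in TOV21G were ZNF506, ZNF253, ZNF93 and ZNF486. ZNF506 (chr19:19785839-19821751, minus strand) had 331, 315 and 288 in the CAOV3 controls and 0 reads in all 6 TOV21G libraries. ZNF486 (chr19:20167228-20200490, plus strand) had 70.4, 75.3 and 87.1 in the CAOV3 controls and likewise 0 reads in all 6 TOV21G libraries. Against a limit of 3 reads over the 3 TOV21G controls, ZNF506 was at least 311-fold and ZNF486 at least 77.4-fold higher in CAOV3. For these genes the lines did not overlap in any library, and the limit covers counting error only. ZNF253 (chr19:19865886-19894674, plus strand) had 131, 117 and 132 in the CAOV3 controls and 1.08, 0 and 1.79 in the TOV21G controls. With 3 reads in all over those TOV21G controls, its ratio was 126 (95% exact counting interval 42.8 to 615). ZNF93, the repressor of L1 elements (chr19:19900913-19963464, plus strand), had the lowest values of the 4, with 31.8, 17.2 and 21.8 in the CAOV3 controls and 1.08, 0 and 0 in the TOV21G controls. Its ratio was 70.0 (95% exact counting interval 12.1 to 2805), from 1 read in TOV21G.

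The 8 members silent in CAOV3 were ZNF43, ZNF429, ZNF492, ZNF726, ZNF730, ZNF737, ZNF66 and ZNF682. ZNF43 (chr19:21804949-21852125, minus strand) was the highest of them, with 883, 824 and 861 in the TOV21G controls and 0, 1.08 and 0.990 in the CAOV3 controls. Its ratio, from 2 reads in CAOV3, was 1208 (95% exact counting interval 334 to 9979). Measured per kilobase of exon, its mean in the TOV21G controls was 99.0, above the 91.6 of ZNF708 and below the 117 of ZNF14, both on in both lines. ZNF492 (chr19:22634324-22667670, plus strand) had 168, 200.2 and 205 in the TOV21G controls, ZNF726 (chr19:23914876-23945159, plus strand) had 193, 187 and 170.5, and ZNF730 (chr19:23075210-23147219, plus strand) had 71.5, 87.0 and 82.5. These 3 genes had 0 reads in all 6 CAOV3 libraries, so they were at least 179.8-fold, 172-fold and 75.6-fold higher in TOV21G against a limit of 3 reads over the CAOV3 controls. ZNF429 (chr19:21496682-21556270, plus strand) had 264, 219 and 253 in the TOV21G controls and 0 reads in the 3 CAOV3 controls, at least 231-fold higher.

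ZNF737 (chr19:20535825-20565809, minus strand) was low but not at 0 in CAOV3, with 3.40, 3.23 and 1.98 in the controls against 228, 214 and 189 in TOV21G, a 73.3-fold difference of the means. ZNF66 was 21.8-fold and ZNF682 6.83-fold higher in TOV21G, the latter with 11.9, 28.3 and 23.3 in TOV21G controls and 1.13, 3.23 and 4.95 in CAOV3 controls. ZNF682 was thus the member nearest to the threshold from inside, with its lowest TOV21G control just above 10. The members just outside the pattern were ZNF90, with 10.2, 9.68 and 5.94 in the CAOV3 controls and 85.6, 94.4 and 92.4 in TOV21G, and ZNF85, with 9.08, 10.8 and 17.8 in CAOV3 and 374, 325 and 336 in TOV21G. Both had libraries on either side of 10 in CAOV3, and their means were 10.5-fold and 27.5-fold higher in TOV21G. Over thresholds of 5 and 20 and with TMM scaling in place of the authors' scaling, the members on in CAOV3 alone numbered 3 to 4 and those on in TOV21G alone 7 to 9.

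The 13 members on in both lines included the highest values of the cluster. ZNF714 (chr19:21082159-21125270, plus strand) led in both, with 1116, 1102 and 1137 in the CAOV3 controls and 1628, 1822 and 1749.6 in the TOV21G controls. Per kilobase of exon its mean was 139 in CAOV3 and 216 in TOV21G, the highest of the members in each line. ZNF254 had 411, 473 and 499.8 in the CAOV3 controls and 570.1, 544 and 581 in the TOV21G controls. ZNF100 had 431, 452 and 432 in CAOV3 and 532, 598 and 600.2 in TOV21G controls. In both genes every TOV21G control was above every CAOV3 control. ZNF91, the repressor of SVA elements, had 304, 290.4 and 366 in the CAOV3 controls and 620.0, 715 and 633 in the TOV21G controls, which was 2.05-fold higher in TOV21G. ZNF724 had 99.9, 101 and 132 in CAOV3 and 261, 254 and 249 in TOV21G controls, a 2.30-fold difference. The lines did not overlap in either gene. ZNF14 had 184, 188 and 218 in CAOV3 and 339, 342 and 352 in TOV21G controls, again without overlap. Among members on in both lines the widest gaps were those of ZNF681, 11.6-fold, and ZNF675, a gene known as an inhibitor of TRAF6 signalling, 4.22-fold, both higher in TOV21G.

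The members on in both lines that leaned to CAOV3 were ZNF430, ZNF431 and ZNF708. ZNF430 had 511, 529 and 581 in the CAOV3 controls and 388, 370.1 and 359 in the TOV21G controls, with no overlap. ZNF431, a repressor known from studies of Hedgehog signalling, had 592, 564 and 668 in CAOV3 and 441, 619 and 470.1 in TOV21G controls, and its lines overlapped. ZNF708 had 441, 427 and 492 in CAOV3 and 403, 416 and 369 in TOV21G controls, again without overlap. ZNF738 and ZNF493 had lower values, from 68.8 to 153 in the CAOV3 controls and from 111 to 295 in the TOV21G controls. The plot of control means sets the members against each other.

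**Figure D2:**
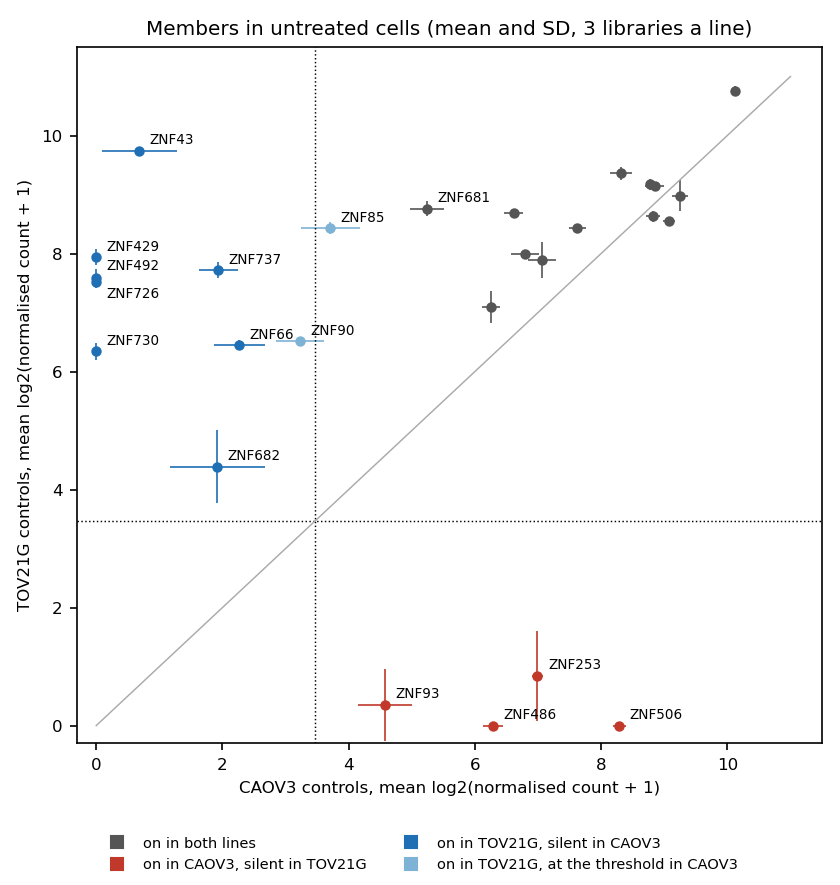
Mean log2(normalised count + 1) of each member in the CAOV3 controls (horizontal) and TOV21G controls (vertical), with bars of 1 SD over 3 libraries, the threshold of 10 as dotted lines and equality as the grey line. The 4 members silent in TOV21G lie along the bottom and 4 members with 0 reads in the CAOV3 controls lie on the left edge.

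The split was set beside other zinc finger genes and beside the other genes of the region. Of 193 other listed ZNF genes of chromosome 19, 150 (77.7%) were on in both lines, 7 (3.63%) in CAOV3 alone and 27 (14.0%) in TOV21G alone. Of 242 ZNF genes on other chromosomes 220 (90.9%) were on in both, 11 (4.55%) in CAOV3 alone and 7 (2.89%) in TOV21G alone. Among the members 48.1% were on in both, against 68.1% of all listed genes. Other genes lying between the outermost members numbered 21, of which 8 were on in both lines, 1 in CAOV3 alone and 5 in TOV21G alone. The long non-coding RNA LINC01224 was one of these, with a mean of 307 in the TOV21G controls and 0 in the CAOV3 controls. ENSG00000268119, a processed transcript, had means of 151 and 0.717, ENSG00000267886, a long non-coding RNA that overlaps ZNF730, had 49.4 and 0, and the pseudogene ZNF849P had 29.1 and 0. In the other direction ENSG00000267481, a transcript inside an intron of ZNF506, had a mean of 30.2 in the CAOV3 controls and 0 in TOV21G, and ENSG00000280079 had 11.2 and 0. Transcripts that overlap a member did not all go with it. ZNF56P, a pseudogene that also overlaps ZNF506, had a mean of 17.1 in the CAOV3 controls and 52.9 in TOV21G, where ZNF506 was at 0. ENSG00000267383, an antisense transcript with a mean of 10.3 in the CAOV3 controls and 0 in TOV21G, overlaps both ZNF486, at 0 in TOV21G, and ZNF90, on there.

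Along the chromosome genes with different patterns were interleaved. The analysed members span 19710471 to 24129961 on chromosome 19 (GENCODE 29 positions on GRCh38; the build used for counting is not given in the sources used here). All 4 members silent in TOV21G were among the first 7 from the 19p13.1 side, and between ZNF93 and ZNF486 lay ZNF682 and ZNF90, which were on in TOV21G. The longest run on in both lines held 6 genes, from ZNF430 to ZNF493, and another held 4, from ZNF724 to ZNF681. Members silent in CAOV3 lay on either side of these runs. Of 26 neighbouring pairs of analysed members 13 shared their pattern.

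The start regions of the members are similar in sequence, and they are shown to set a gene silent in 1 line beside one silent in the other. RefSeq (GRCh38.p14) gave a promoter window, 250 bases before to 50 bases after the first listed start, for 27 of the 34 members, which excludes ZNF253, ZNF506 and ZNF738 among those analysed. The 250 bases before the start are printed 5′ to 3′ in the direction of the gene, with each TCCAATCA, an extended CCAAT box, in capitals. ZNF486 (chr19:20166964-20167213 on the plus strand) and ZNF93 (chr19:19900696-19900945 on the plus strand) were silent in TOV21G. ZNF66 (chr19:20776054-20776303 on the plus strand), ZNF43 (chr19:21836183-21836432 on the minus strand) and ZNF492 (chr19:22634074-22634323 on the plus strand) were silent in CAOV3. ZNF714 (chr19:21081953-21082202 on the plus strand) was on in both. The RefSeq start was within 100 bases of the GENCODE start for 23 windows, while those of ZNF43, ZNF429, ZNF730 and ZNF254 lay 15.9, 8.92, 41.8 and 53.8 kb inside the GENCODE gene, so these 4 windows may not be at the start used in these cells.
ZNF486: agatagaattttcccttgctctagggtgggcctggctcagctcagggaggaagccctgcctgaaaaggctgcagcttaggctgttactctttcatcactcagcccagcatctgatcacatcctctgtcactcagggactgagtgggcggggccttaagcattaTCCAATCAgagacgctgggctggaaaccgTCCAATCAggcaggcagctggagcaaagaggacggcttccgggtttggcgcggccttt
ZNF93: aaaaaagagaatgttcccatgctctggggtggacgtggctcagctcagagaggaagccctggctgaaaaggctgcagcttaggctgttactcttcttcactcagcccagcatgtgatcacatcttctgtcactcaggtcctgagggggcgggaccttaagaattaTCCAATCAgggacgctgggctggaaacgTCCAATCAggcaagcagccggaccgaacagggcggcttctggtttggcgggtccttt
ZNF66: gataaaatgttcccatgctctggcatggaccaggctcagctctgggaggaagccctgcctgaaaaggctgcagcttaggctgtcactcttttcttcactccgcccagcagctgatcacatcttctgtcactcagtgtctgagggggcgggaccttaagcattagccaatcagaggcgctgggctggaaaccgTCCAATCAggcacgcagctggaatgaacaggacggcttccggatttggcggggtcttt
ZNF43: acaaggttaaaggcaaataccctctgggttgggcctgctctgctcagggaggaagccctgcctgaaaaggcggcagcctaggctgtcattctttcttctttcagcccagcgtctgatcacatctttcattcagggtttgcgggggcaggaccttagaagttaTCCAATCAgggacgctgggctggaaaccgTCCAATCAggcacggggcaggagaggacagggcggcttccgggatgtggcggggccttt
ZNF492: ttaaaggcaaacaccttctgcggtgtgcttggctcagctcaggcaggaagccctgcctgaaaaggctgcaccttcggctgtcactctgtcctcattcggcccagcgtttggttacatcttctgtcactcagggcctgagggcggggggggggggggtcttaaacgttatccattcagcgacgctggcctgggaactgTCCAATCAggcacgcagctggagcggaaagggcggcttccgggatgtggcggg
ZNF714: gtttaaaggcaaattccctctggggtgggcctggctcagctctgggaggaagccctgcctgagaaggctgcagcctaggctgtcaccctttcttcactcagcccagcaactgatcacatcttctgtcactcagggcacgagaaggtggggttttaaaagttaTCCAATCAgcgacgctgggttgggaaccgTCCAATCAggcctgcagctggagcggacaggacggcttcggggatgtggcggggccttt

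The ZNF486 and ZNF66 windows were 87.4% identical in a global alignment of all 300 bases, although ZNF486 was at 0 in TOV21G and ZNF66 was silent in CAOV3. Over all 351 pairs of member windows the median identity was 76.8% (48.9% to 91.0%). Pairs of members with the same pattern had a median of 74.3% (96 pairs), and pairs silent in opposite lines a median of 77.7% (16 pairs, 53.8% to 87.4%). The opposite pairs set only ZNF93 and ZNF486 against the 8 members silent in CAOV3. Of the windows low in identity, those of ZNF14, ZNF708 and ZNF675 enter the same-pattern pairs alone, and those of ZNF682 and ZNF429 enter both sets. No contrast is read from the medians. The closest pair was ZNF714 and ZNF431, 91.0%, both on in both lines. The windows of ZNF14, ZNF682, ZNF708, ZNF429 and ZNF675 stood apart from the rest, which the map of identities shows. In ZNF708, ZNF429 and ZNF675 the last TCCAATCA began only 32, 30 and 24 bases before the listed start, against 54 in ZNF14 and 53 in ZNF682. The windows are set by that start, so a shifted start lowers the identity of otherwise similar sequence. The part of such shifts was not tested.

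**Figure D3:**
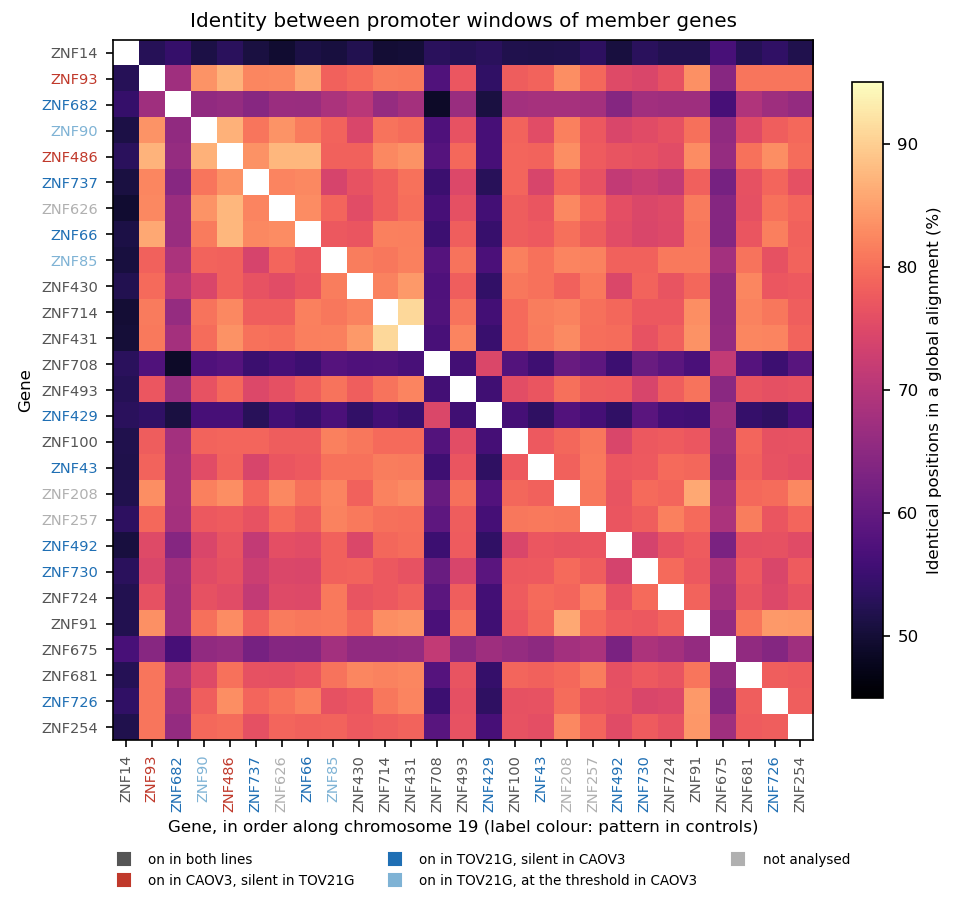
Identity in a global alignment, in percent, between the promoter windows of the 27 members that had one, in chromosomal order on both axes, with label colours for the pattern in controls. ZNF14, ZNF682, ZNF708, ZNF429 and ZNF675 form dark bands, and genes with blue, red and grey labels lie within the same bright area.

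The TCCAATCA letters, searched on both strands, were in 27 of the 27 member windows, in the direction of the gene at every copy, and 15 windows held at least 2 copies. The last copy began a median of 54 bases before the gene start (24 to 85), and in 13 of the 15 windows with more than 1 copy the neighbouring copies began 29 bases apart. These letters were picked from the members' own windows. They were in 25 of 186 windows of other ZNF genes of chromosome 19 (13.4%) and in 1.55% of all 34943 windows, 0.226% holding at least 2 copies. The plain CCAAT letters inside them were in 47.3% and 34.7% of the same sets. Every window held them, whatever the pattern of the gene. CpG dinucleotides numbered 8 to 16 per window with a median of 10, against a median of 14 over all windows, and the medians were 10 for members on in both, 10 for the 2 silent in TOV21G that had a window and 10.5 for the 8 silent in CAOV3.

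The transcripts of the members also share sequence. The median member had 4.09% of its 50-base windows in a transcript of another gene (0 to 48.3%). ZNF724 shared 43.6% of them with AC092329.3, which overlaps it on the same strand, and ZNF492 shared 29.4% with ZNF98, a member not analysed here, so the counts of ZNF724 and ZNF492 are uncertain. Since no strandedness is given, counts of members that overlap another gene on either strand are uncertain as well, among them ZNF429, which overlaps LINC00664 on the same strand and other transcripts on the opposite strand. By a pattern match in the open stretch with the most C2H2 fingers, the analysed members carried from 8 (ZNF506) to 31 fingers (ZNF91). ZNF43 carried 19. The medians were 12.5 fingers for members on in both lines, 10 for those silent in TOV21G and 13.5 for those silent in CAOV3, with overlapping ranges, and ZNF738 gave no match.

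Ascites switched no member on or off by this rule: 0 of the 27 changed state with ascites in CAOV3 and 0 in TOV21G. Each comparison used limma on log2(value + 1) over all 17616 tested genes and all 12 libraries, with p-values adjusted by the Benjamini-Hochberg method and a call at an adjusted p under 0.05. All 27 members passed the filter on low values over the 12 libraries, but only 19 reached it within the CAOV3 libraries and 23 within those of TOV21G. In CAOV3 0 of these 19 were called by limma, and 0 by edgeR and by DESeq2 on recovered reads, against 1.73% of all genes. An unadjusted limma p under 0.05 was found for 2 of the 19, against 2280 of all 17616 genes. In TOV21G 0 of the 23 members that reached the filter there were called by limma, edgeR or DESeq2, against 0.409% of all genes by limma. Of all 27 members 1 had an unadjusted limma p under 0.05 in TOV21G, against 1615 of all 17616 genes. This was ZNF253, which passed the filter through CAOV3 alone. The difference between the responses was called by limma, edgeR or DESeq2 for 0 of the members that reached the filter in both lines. By limma it was called for 0.545% of all genes. Of those members 1, ZNF430, had an unadjusted p under 0.05, against 2091 of all 17616 genes. The 1 member past the limma threshold in CAOV3 and in the difference was ZNF429, which passed the filter through TOV21G alone and is given by its reads. It was also past the threshold of edgeR and DESeq2 in CAOV3, but not in the difference.

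ZNF429 had 0 reads in the 3 CAOV3 controls and exactly 3 reads in each of the 3 CAOV3 ascites libraries, values of 3.28, 3.07 and 3.07. All 3 ascites libraries were above all 3 controls. Against a limit of 3 reads over the controls this is at least 2.95-fold higher, and the gene was far below its level in TOV21G, where it had 264, 219 and 253 in the controls and 249, 219 and 253 with ascites, overlapping groups. In the fit of all libraries its log2 difference in CAOV3 was 2.05 ± 0.18 (SE), a value that depends on the pseudocount, with a spread estimated over both lines. In a fit of the CAOV3 libraries alone it had too few reads to be tested, so no response is read from these 9 reads.

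Among the members that CAOV3 transcribes no difference with ascites passed the test, though the means leaned 1 way. All 17 members on in CAOV3 had a lower mean log2 value in ascites, with differences from −0.23 to −0.0056, while 52.2% of the 14987 tested genes on in that line did. None of these differences was called, and without CAOV3 control replicate 3 the number lower was 10 of 17. Over all 27 members the median log2 difference in CAOV3 was −0.08, against −0.0021 for all tested genes, and it was 0 without that replicate. This median counts 8 members that did not reach the filter within CAOV3. Of these, 3 had 0 reads in all 6 CAOV3 libraries, which fixes their difference at 0. For the 17 members on in CAOV3 the median was −0.096, against −0.0056 for all tested genes on in that line. The members on in CAOV3 summed to 4975, 4977 and 5436 in the controls and 4836, 4837 and 4847 with ascites, so control replicate 3 was the library that stood apart. The ascites libraries lay below all controls for 5 of the 27 members, ZNF14, ZNF430, ZNF714, ZNF100 and ZNF724, against 12.8% of all tested genes, and above all controls for ZNF429 alone, the gene of 9 reads, against 11.4%.

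ZNF430 had the smallest p of these. It had 511, 529 and 581 in the CAOV3 controls and 463, 483 and 491 with ascites, with no overlap between the groups. Its log2 difference was −0.17 ± 0.07 (SE, limma adjusted p = 0.293). ZNF14 had 184, 188 and 218 in the controls and 159.7, 175 and 182 with ascites, a log2 difference of −0.19 ± 0.09 (SE, limma adjusted p = 0.383). ZNF714 had 1116, 1102 and 1137 in the controls and 1097, 1012 and 1067 with ascites. In each the highest ascites library was only just below the lowest control, and neither ZNF430 nor ZNF14 passed the threshold. The other members silent in CAOV3 were tested there only through their TOV21G values, so nothing is read from the lack of calls among them. Of these, ZNF492, ZNF726 and ZNF730 had 0 reads in CAOV3 and could not be called, and ZNF43 had 0, 2.04 and 0 with ascites. Of the genes silent in TOV21G none was called in CAOV3. ZNF506 had 270.2, 304 and 297 and ZNF253 125, 111 and 143 with ascites, both overlapping their controls.

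The remaining members with high levels or wide gaps between the lines were also given by library. With ascites in CAOV3, ZNF100 had 421, 418 and 408 and ZNF724 had 99.5, 89.97 and 97.2, each library below the lowest control. ZNF431 had 626, 565 and 569, ZNF254 had 447, 475 and 435 and ZNF91 had 278, 329 and 321, and these overlapped their controls. Of the genes silent in TOV21G, ZNF486 had 72.2, 59.3 and 81.8 and ZNF93 had 16.4, 21.5 and 20.46. ZNF737, silent in CAOV3 and tested there only through its TOV21G values, had 2.19, 1.02 and 4.09. None of these was called, with log2 differences from −0.25 to −0.02.

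**Figure D4:**
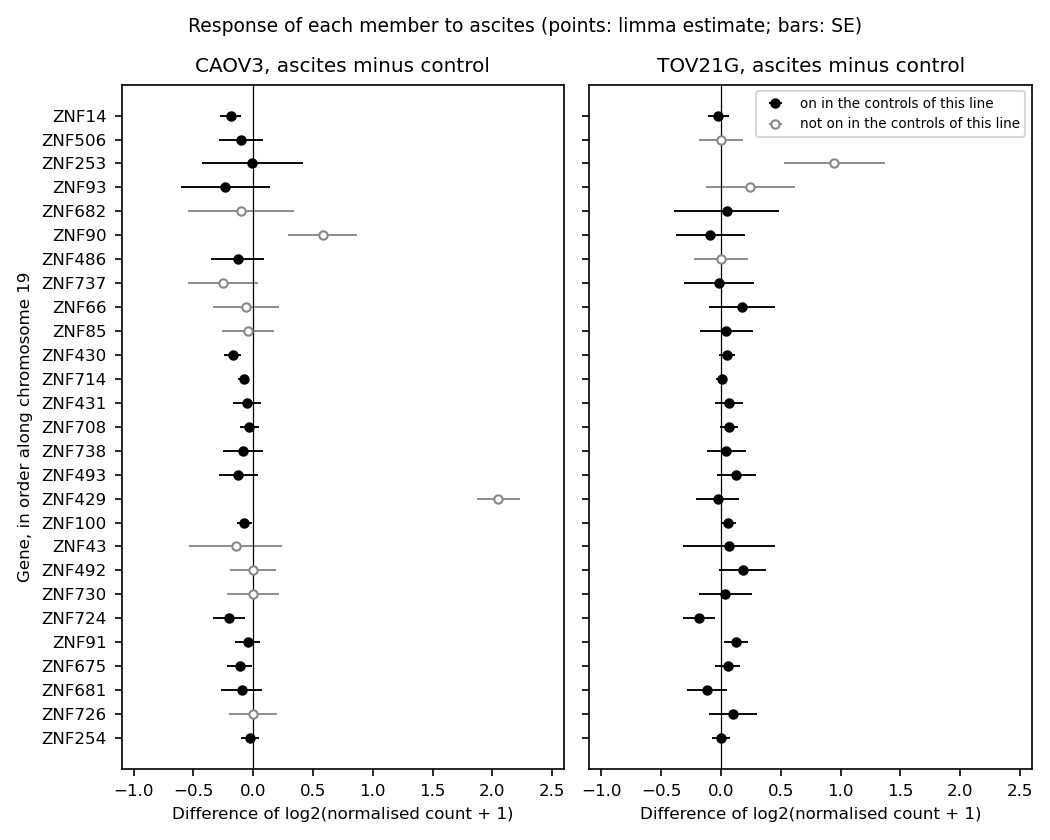
Difference of mean log2(normalised count + 1) between ascites and control for each member in CAOV3 (left) and TOV21G (right), as the limma estimate with its SE, filled where the gene was on in the controls of that line. ZNF429 in CAOV3 lies at 2.05, from 9 reads against 0, and the filled points lie between −0.23 and 0.18 in both panels.

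In TOV21G no member passed the test. Of the 23 members on in TOV21G 17 had a higher mean log2 value in ascites and 6 a lower one, whereas 61.0% of the 14651 tested genes on in that line were lower. That share was 51.2% with TMM scaling and 50.7% with edgeR, where 19 and 18 members were higher. Without TOV21G ascites replicate 3 the members higher numbered 12 of 23 and without control replicate 1 they numbered 13. The median log2 difference over the 27 members was 0.05, against −0.02 for all tested genes (0.0001 with TMM scaling), and it was 0.0087 without control replicate 1 and 0.011 without ascites replicate 3. This median counts 4 members that did not reach the filter within TOV21G. Of these, 2 had 0 reads in all 6 TOV21G libraries, which fixes their difference at 0. For the 23 members on in TOV21G the median was 0.05 too, against −0.03 for all tested genes on in that line. Only ZNF492 had all ascites libraries above all controls, against 4.16% of all tested genes, and 0 members had them below, against 6.99%. ZNF492 had 168, 200.2 and 205 in the controls and 206, 225 and 218 with ascites, a log2 difference of 0.18 ± 0.20 (SE, limma adjusted p = 0.783).

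The members with the smallest p in TOV21G were ZNF253, ZNF724 and ZNF91. ZNF253 had 1.08, 0 and 1.79 in the controls and 2.48, 0.885 and 5.37 with ascites, overlapping groups of very few reads, with a ratio of 2.89 (95% exact counting interval 0.743 to 16.3). ZNF724 had 261, 254 and 249 in the controls and 239, 186 and 254 with ascites, with 1 ascites library well below the rest, and a log2 difference of −0.18 ± 0.13 (SE, limma adjusted p = 0.682). ZNF91 had 620.0, 715 and 633 in the controls and 724, 639.8 and 787 with ascites, a log2 difference of 0.12 ± 0.10 (SE, limma adjusted p = 0.725). All 3 overlapped their controls.

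The genes that only TOV21G transcribes overlapped between ascites and control libraries, apart from ZNF492. ZNF43 had 854, 857 and 978 with ascites. ZNF726 had 188, 230.1 and 174, ZNF730 had 96.1, 72.6 and 79.6 and ZNF737 had 220.3, 198 and 203. All 4 overlapped their controls. Of the members on in both lines, ZNF714 had 1795, 1721 and 1698, ZNF430 had 359, 404 and 396 and ZNF254 had 571, 534 and 595 with ascites. ZNF100 had 569.8, 604 and 630.0 and ZNF14 had 323, 361 and 334, and these 5 overlapped their controls too. Log2 differences over these 9 genes ran from −0.02 to 0.10. ZNF93, silent in TOV21G, had 0.828, 0 and 0.895 with ascites, from 2 reads.

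Within each TOV21G group the libraries spanned a wider range than the gap between the group means. The members on in TOV21G summed to 8679, 9288 and 8851 in the controls and 9166, 8762 and 9497 with ascites. Control replicate 2 was the highest control for 11 of the 23, against 25.6% of all genes on in the line, and ascites replicate 3 the highest ascites library for 13 of the 23, against 24.7%. ZNF431 showed this order, with 441, 619 and 470.1 in the controls and 558, 463 and 569 with ascites, and so did ZNF738, with 193, 295 and 231 in the controls and 244, 208 and 283 with ascites. ZNF714 did not, with 1795, 1721 and 1698 with ascites, where replicate 3 was the lowest. The nuclear non-coding RNA KCNQ1OT1 had the order of ZNF431, at 95.4, 656 and 234 in the controls and 731, 235 and 1511 with ascites. Its part in the values of the members was not tested.

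**Figure D5:**
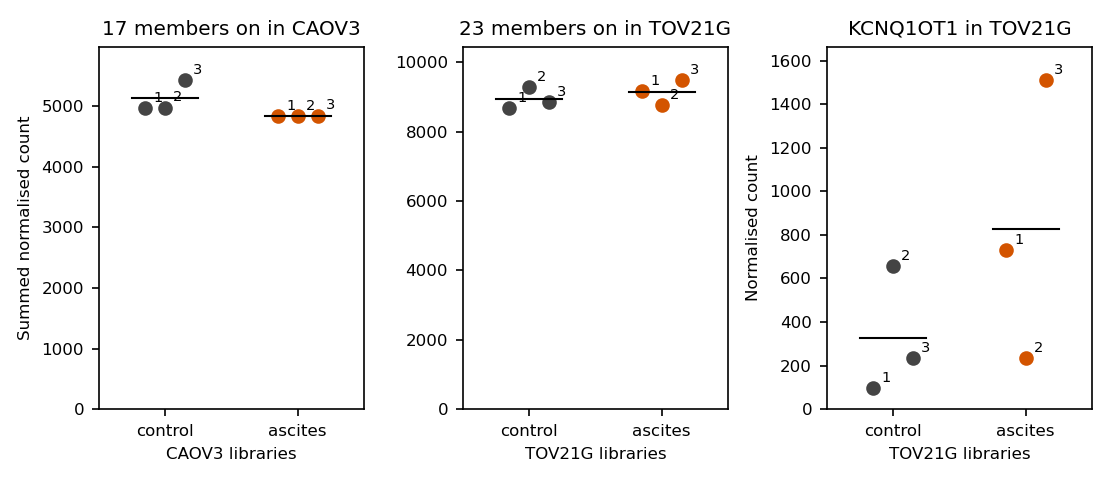
Summed normalised count per library of the 17 members on in CAOV3 (left) and of the 23 on in TOV21G (middle), and the normalised count of KCNQ1OT1 in TOV21G (right), with the replicate number beside each point and the group mean as a line, from 0. CAOV3 control replicate 3 lies apart at 5436, and in TOV21G control 2 and ascites 3 are the highest of their groups in both TOV21G panels.

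The machinery through which KRAB zinc finger proteins silence their targets was present in both lines. All 27 genes of a list of corepressors, heterochromatin proteins and DNA methylation enzymes were tested. By limma 0 of 27 were called with ascites in CAOV3 and 0 of 27 in TOV21G, against 1.73% and 0.409% of all genes. In each line 3 had an unadjusted p under 0.05, against 2280 and 1615 of all 17616 genes in CAOV3 and TOV21G. The median log2 differences were −0.01 and −0.02. DESeq2 called 1 of 27 in CAOV3, ATF7IP, a partner of SETDB1, with a log2 difference of −0.19 (DESeq2 adjusted p = 0.0234), where 3.66% of all genes were called, and 0 in TOV21G, and edgeR called 0 in both. A fit of the CAOV3 libraries alone called 4, ATF7IP, CBX5, CHD3 and TET3, all lower, in a fit that called 8.19% of all genes.

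TRIM28, the corepressor itself, had a mean of 23040 ± 194 (SD, n = 3) in the CAOV3 controls and 17680 ± 1174 in the TOV21G controls. SETDB1 had 815 ± 51.2 and 1319 ± 37. Between the lines 13 of the 27 were called higher and 9 lower in TOV21G by limma, where 82.2% of all genes were called, so the count is near the background. The widest gap was that of DNMT3B, a de novo DNA methyltransferase, with 305 ± 9.43 in the CAOV3 controls and 2623 ± 71 in the TOV21G controls, a log2 difference of 3.10 ± 0.06 (SE, limma adjusted p = 9.127e-15). The related DNMT3A leaned the other way, with 1286 ± 69 and 733 ± 11.1, and DNMT1, which maintains methylation, had 14170 ± 297 and 10290 ± 226. TET1, which oxidises methylated cytosine, had 312 ± 14.0 and 443 ± 35.2. DNA methylation and the binding of any factor at these genes were not measured.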

How the data were processed

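Total RNA was sequenced, and the library kit, strandedness, genome build and annotation used for counting are not given in the sources used here. The submitters' processing notes name Trim Galore, cutadapt, STAR, HTSeq and DESeq. The authors deposited 1 normalised read count signal per gene and library: all values were whole multiples of 1 step per library, within 0.01 reads, and the steps matched the inverse of median-of-ratios size factors computed over the 12 libraries, which no header records. A listed gene had at least 10 reads in its highest library.

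Here, limma 3.58.1 (R 4.3.3, trend) was fitted to log2(value + 1) with 1 mean for each of the 4 groups over 17616 genes with a value of at least 10 in at least 3 libraries. A fold change on this scale understates the change of low genes. P-values are two-sided, adjusted by Benjamini-Hochberg within each contrast. The alternatives were edgeR 4.0.16 and DESeq2 1.42.0 on recovered reads, TMM scaling, other pseudocounts, no filter, 1 line alone, a replicate block and leaving out each library. The fit was checked on simulated data. Positions came from GENCODE 29, matched by gene identifier for 19223 genes, and 28 identifiers had no name. Promoters came from RefSeq (GRCh38.p14) and were aligned with Biopython 1.88. Limits for 0 reads are 3 reads over a group, and intervals cover counting error only. Chi-square per degree of freedom between replicates was 1.81 to 22.6, so none was a copy.

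The members, lists and tests were chosen with earlier results of these data known. Members given with every value were, by rule, the 6 with the largest difference between control groups in each direction, the 6 with the highest mean, those called, and the 3 with the smallest p per line. ZNF90, ZNF85, ZNF682, ZNF708 and ZNF738 were chosen after their values were seen, as were ZNF849P and the members compared by promoter. KCNQ1OT1 was in no list or rule set in advance.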

Additional observations from a re-analysis of the deposited data

Results flagged for a closer look

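ZNF429 passed limma's threshold in the test of the difference between the responses, where TOV21G minus CAOV3 was −2.08 on the log2 scale (adjusted p = 0.003293), but no difference in response is read from it. The gene passed the filter on low values through TOV21G alone, where the 6 libraries lay between 219 and 264. In CAOV3 it had 3 reads in each of the 3 ascites libraries against 0 in each of the 3 controls. Within CAOV3 edgeR and DESeq2 called it higher with ascites (edgeR adjusted p = 0.038, DESeq2 adjusted p = 0.0488), in fits that held both lines. They did not call the difference between the responses. The parts of the spread shared between the lines and of the overlapping LINC00664 were not tested.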

How the results depend on the processing

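In CAOV3 ZNF429 passed the threshold only in fits that held TOV21G libraries too, with log2 differences of 0.70 to 4.71 over 7 settings. These fits tested it through its TOV21G values, apart from the fit with no filter, which tested every gene. A fit of CAOV3 alone, which left it untested, called 0 members. The difference between the responses was called for 0 members with DESeq2 (ZNF429 adjusted p = 0.0766), edgeR (0.0837), a pseudocount of 5 (0.144) and a replicate block (0.0827), and for 1 in each fit without 1 library. In TOV21G 0 members were called in all 8 other settings and 12 such fits. Corepressor calls in CAOV3 rose from 0 to 4 with CAOV3 fitted alone and to 1 with DESeq2, and ranged from 0 to 1 when 1 library was left out, with the 1 (ATF7IP) appearing without TOV21G control replicate 1. The median over all 27 members in CAOV3 ranged from −0.0918 to 0 when 1 library was left out. It was 0 without CAOV3 control replicate 3, which also took the members lower from 17 to 10. In TOV21G this median ranged from 0.0087 to 0.078, and the members higher from 12 to 19. These 2 counts, of members lower and higher, were added after seeing the data. Over other settings the calls among all genes ranged from 116 to 1295 in CAOV3 (305 in the reported fit), 13 to 150 in TOV21G (72) and 9 to 212 for the difference (96). Replicate numbers did not pair the libraries: correlations of same-numbered deviations were −0.0196, 0.019 and 0.0155 in CAOV3 and −0.113, −0.332 and 0.0193 in TOV21G. Those of other-numbered deviations ran from −0.0544 to 0.0389 in CAOV3. In TOV21G they ran from −0.282 to 0.352, so libraries of its 2 groups did share deviations, whose source was not tested. With a replicate block 116, 13 and 9 genes were called. At these depths a gene at 0 reads in 3 libraries could have a mean value of up to about 1, and a silent gene is one below 10, which may hold reads. The cause of each change named here without one was not tested.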
